A study of Homo sapiens with 8 samples.

Results

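The arrays gave values for 58 histone genes, of 19775 genes that had a probe set (a group of array probes summarised as 1 value) annotated to them alone. A gene was taken as a histone gene when its current or earlier symbol carried a histone family prefix, such as HIST1H, H2AF, H2BC or H4C; H2AX and the macroH2A genes entered through the earlier H2AF prefix. Of the 58, 41 are replication-dependent genes, 8 encode variants that also act outside replication, 5 are germline genes, 3 are pseudogenes and 1 is an RNA antisense to H1-10. By protein, 11 belong to H1, 15 to H2A, 14 to H2B, 9 to H3 and 9 to H4. A gene entered the tests if its mean over the 8 arrays reached a log2 value of 4.83, the 40th percentile of all probe sets. That left 36 histone genes (24 replication-dependent, 8 variant, 3 germline and 1 pseudogene) among 14731 genes, and 22 histone genes lay under it.

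The cells were HTETOP, a human line derived from HT1080 fibrosarcoma in which topoisomerase II alpha (TOP2A) is under tetracycline control, in treated and control cells alike. Doxycycline at 1 µg/ml was set against its own vehicle with 1 array each, and dexrazoxane at 100 µM, a catalytic inhibitor of topoisomerase II, against its own vehicle with 3 arrays each, all after 24 h. Each array held RNA from 3 passages mixed together (passages 15 to 17 in the doxycycline pair), and the line is a single engineered one. No label says that arrays of different number were separate cultures, so the p-values cover the spread among these arrays, which could be technical.

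Histones package DNA into nucleosomes: H2A pairs with H2B, H3 pairs with H4, and H1 binds the linker DNA between nucleosomes. Replication-dependent histone genes sit mostly in clusters and are transcribed in S phase. As a rule they have no introns and give mRNAs that end in a stem-loop bound by SLBP in place of a poly(A) tail. Variant genes such as H2AZ1 or H3-3A are transcribed through the cell cycle and give polyadenylated mRNAs, and H2AX is known to give both kinds of mRNA. A labelling protocol that starts from oligo(dT) reads mRNAs with a stem-loop poorly, and which primer was used is not stated by the labels, so a value of a replication-dependent gene may cover only part of its mRNA. In bulk samples fewer cells in S phase and less mRNA per cell cannot be told apart.

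As a check of the labels, TOP2A read 6.02 with doxycycline and 11.98 with its vehicle, 62.1-fold lower, and with dexrazoxane it differed by -1.57 (limma, paired, adjusted p = 0.00427). Array medians were 4.81 and 4.82 in the doxycycline pair and 5.49 to 5.57 on the other 6 arrays. Levels are therefore compared only within a treatment, except by the filter, which took the mean over all arrays. All 10 mesenchymal markers were over the filter and none was called in either direction. Of 6 epithelial markers 2 were over it; EPCAM and CDH1, which define epithelium, were under it, while KRT8 was 0.51 higher with dexrazoxane (limma, paired, adjusted p = 0.0334). The mean log2 level of the 6 epithelial markers ran from 6.23 to 6.35 on the vehicle arrays and from 6.38 to 6.50 on the dexrazoxane arrays. KRT18, the other marker over the filter, was 0.26 higher, while EPCAM, CDH1, KRT19 and ESRP1 differed by -0.04 to 0.08. Of the leukocyte markers 3 of 5 measured and of the endothelial markers 3 of 5 were over the filter, and none was called. Whether KRT8 has a part in the histone values was not tested.

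With dexrazoxane the 36 tested histone genes differed little and lay on both sides of 0. H4C8, a histone H4 gene, rose 1.42-fold in the paired comparison. A brighter probe set that 14 H4 genes share, H4C8 among them, lay outside the rule for members and differed by -0.70. Most H2A and H2B genes and all 8 variants were lower on average, none past the threshold. H3-3A had the largest difference of the 36, -0.55, with pairs on both sides of 0. Its probe set was dim beside the 8 sets that H3-3A shares with H3-3B, which differed by -0.15 to -0.04. In limma without a block, 0 of the 36 histone genes and 0% of all tested genes were called at an adjusted p under 0.05; at an unadjusted p under 0.05 there were 1 of 36 and 5.19%. Same-numbered treated and vehicle arrays deviated together and were taken as pairs, and with the pair as a block limma called 1 of 36 histone genes higher and 0 lower, against 4.87% of all genes (2.42% higher and 2.44% lower). At an unadjusted p under 0.05 the paired fit held 10 of 36 histone genes and 22.4% of all genes. With 3 arrays against 3, an exact permutation test of 1 gene cannot go below a two-sided p of 0.1.

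The difference was below 0 for 23 of 36 histone genes, against 45.4% of all genes tested, and above 0 for 13. Its median was -0.06 on the log2 scale, against 0.02 over all genes tested. The median was -0.11 in pair 1, -0.03 in pair 2 and -0.10 in pair 3, where all genes had 0.02, 0.04 and 0.00. All 3 pairs lay below 0 for 12 histone genes (19.4% of all genes) and above 0 for 6 (25.7% of all genes). For 3 histone genes, H2BC4, H3C3 and H2AZ2, the groups did not overlap, each time with the dexrazoxane arrays lower. Of all genes tested 10.1% had groups that did not overlap, 6.53% on the higher side and 3.62% on the lower.

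**Figure D1:**
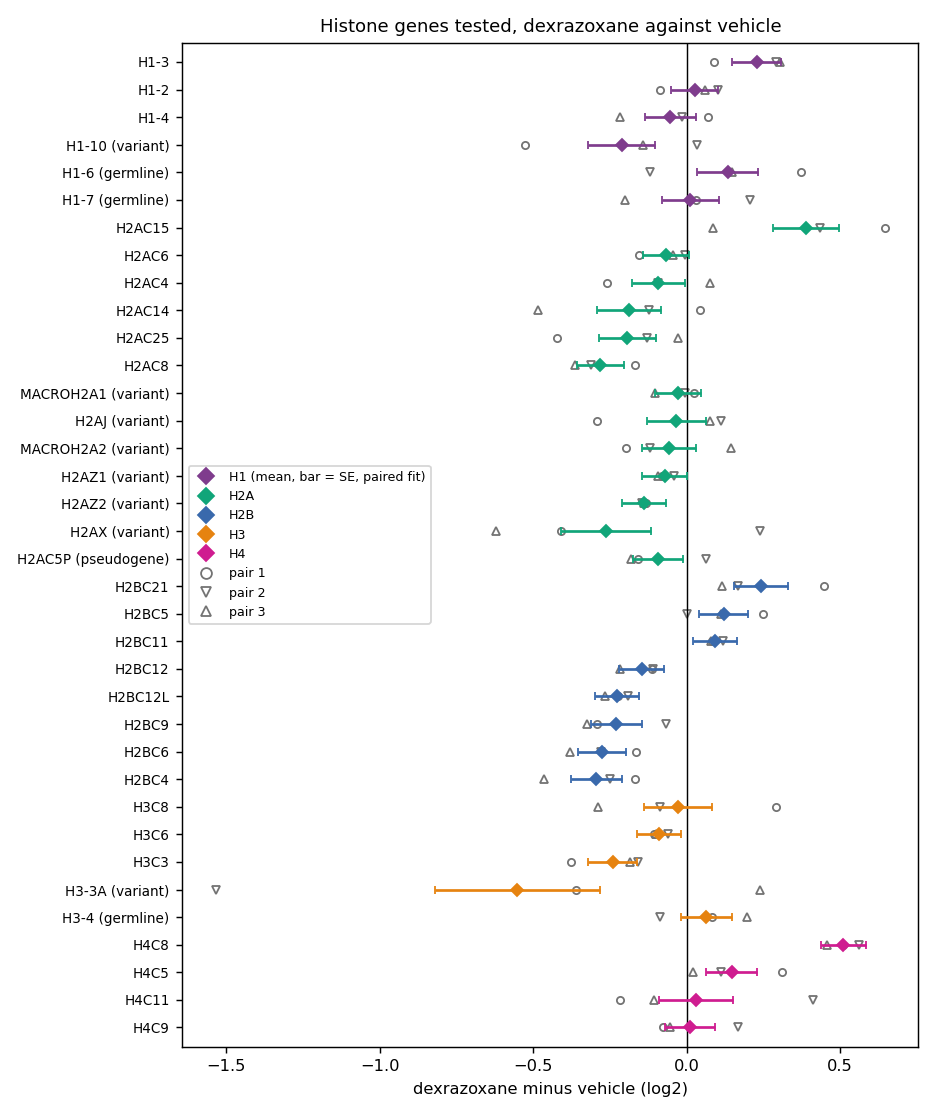
Difference between dexrazoxane and vehicle (log2, x axis) for each of the 36 tested histone genes, grouped by protein; diamonds are means, bars the standard error of the paired limma fit, and open symbols the 3 pairs. H4C8 stands at 0.51 with its 3 pairs between 0.46 and 0.56, 12 of 13 H2A-class genes lie below 0, and the pairs of H3-3A run from -1.54 to 0.24.

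H4 histones are the partners of H3 in the nucleosome core, and many gene copies encode the same protein. All 4 tested H4 genes were above 0 on average, with differences of 0.01 to 0.51. H4C8 read 6.09, 6.65 and 6.76 on the vehicle arrays (6.50 ± 0.357, SD, n = 3) and 6.60, 7.21 and 7.22 on the dexrazoxane arrays (7.01 ± 0.353). The ranges of the groups overlapped, since array 1 was lowest in both, but every treated array was above the vehicle array of its number, by 0.51, 0.56 and 0.46. H4C8 rose by 0.51 ± 0.07 (SE), with an adjusted p of 0.0144 in the paired limma fit and 0.967 without the block. A second H4C8 probe set, which the test did not use, differed by 0.47, with limma's paired adjusted p at 0.0986 in a fit of the 41097 sets that carry 1 symbol. The call on the first set was lost in that same fit (limma, paired, adjusted p = 0.0524) and when pair 1 was left out (limma, paired, adjusted p = 0.0680). The other tested members were H4C5, H4C9 and H4C11, and H4C5 was above 0 in all 3 pairs, by 0.31, 0.11 and 0.02. H4 coding sequences are nearly alike, so probes may read several copies. A bright probe set annotated to 14 H4 genes together, H4C8 among them, averaged 12.39 with vehicle and 11.69 with dexrazoxane. It differed by -0.70, and its groups did not overlap (limma, paired, adjusted p = 0.0374 in a fit of all 54675 probe sets).

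H2B is the partner of H2A, and its genes lay on both sides of 0. In all 3 pairs 5 of the 8 tested H2B genes were lower, H2BC4, H2BC6, H2BC9, H2BC12 and H2BC12L, by -0.29 to -0.15 on average, and 2 were higher, H2BC11 and H2BC21; the class median was -0.19. H2BC4 read 6.81, 6.91 and 7.07 on the vehicle arrays and 6.64, 6.65 and 6.61 on the dexrazoxane arrays. Each treated array lay under every vehicle array, and the difference was -0.29 ± 0.08 (SE; limma, adjusted p = 0.087 paired and 0.941 without the block). H2BC6 read 9.19, 9.55 and 9.48 against 9.02, 9.27 and 9.10, a difference of -0.28 (limma, paired, adjusted p = 0.087). H2BC12L, a copy outside the clusters on chromosome 21, read 10.96, 11.23 and 11.14 against 10.74, 11.03 and 10.88, a difference of -0.23 (limma, paired, adjusted p = 0.114). H2BC9 differed by -0.23 and H2BC12 by -0.15 (limma, paired, adjusted p = 0.150 and 0.285). None of the 5 passed the threshold in the fits described. In an alternative limma fit with a trended and robust variance, under which 12.5% of all genes were called, H2BC6, H2BC12 and H2BC12L passed it, with adjusted p = 0.0178, 0.0408 and 0.0125.

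H2BC21, a gene of the chromosome 1 cluster, went the other way. It read 7.70, 8.27 and 8.47 on the vehicle arrays and 8.15, 8.44 and 8.58 on the dexrazoxane arrays. The groups overlapped, but the pairs differed by 0.45, 0.17 and 0.12, for a mean of 0.24 ± 0.09 (SE; limma, paired, adjusted p = 0.151) and 0.14 without pair 1. H2BC6, H2BC9, H2BC12L and H2BC5 are read by probe sets of the type that the array maker marks as open to cross-hybridisation (suffix _x_at, 8 of the 36 sets used), and whether they read each other's mRNA was not tested; H2BC4 and H2BC12 are not of that type.

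The promoters of H4C8, of 3 H2B genes that were lower in all pairs and of H2BC21, which was higher in all pairs, are shown to set their letters side by side. Each is the 250 bases before the RefSeq start in GRCh38.p14, 5′ to 3′ on the gene's strand, and capitals mark 3 motifs searched on both strands, with overlapping matches counted: ATTTGCAT, the octamer that POU2F1 (OCT1) is known to bind in H2B promoters, CCAAT and TATAAA. The windows are chr6:26285535-26285784 (minus strand) for H4C8, chr6:26123927-26124176 (minus) for H2BC4, chr6:26183511-26183760 (plus) for H2BC6, chr6:27146859-27147108 (minus) for H2BC12 and chr1:149886683-149886932 (minus) for H2BC21.
H4C8: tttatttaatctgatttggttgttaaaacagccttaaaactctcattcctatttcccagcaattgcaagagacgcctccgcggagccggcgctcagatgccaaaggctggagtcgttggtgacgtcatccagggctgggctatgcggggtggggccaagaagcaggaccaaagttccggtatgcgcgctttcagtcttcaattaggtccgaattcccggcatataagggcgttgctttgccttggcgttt
H2BC4: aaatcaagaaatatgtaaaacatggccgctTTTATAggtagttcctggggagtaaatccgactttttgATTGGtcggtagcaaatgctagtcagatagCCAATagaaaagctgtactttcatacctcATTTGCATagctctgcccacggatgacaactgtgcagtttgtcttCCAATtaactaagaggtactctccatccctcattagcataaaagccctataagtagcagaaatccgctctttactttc
H2BC6: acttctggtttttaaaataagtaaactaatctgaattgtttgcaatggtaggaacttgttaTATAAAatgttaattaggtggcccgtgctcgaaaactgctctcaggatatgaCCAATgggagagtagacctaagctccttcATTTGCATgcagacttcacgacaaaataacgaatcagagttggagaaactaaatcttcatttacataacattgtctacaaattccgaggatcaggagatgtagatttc
H2BC12: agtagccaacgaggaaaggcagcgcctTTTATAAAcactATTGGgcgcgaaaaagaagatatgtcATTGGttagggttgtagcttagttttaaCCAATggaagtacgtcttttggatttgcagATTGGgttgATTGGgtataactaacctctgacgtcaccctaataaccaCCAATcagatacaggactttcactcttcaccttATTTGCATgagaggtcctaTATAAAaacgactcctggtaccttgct
H2BC21: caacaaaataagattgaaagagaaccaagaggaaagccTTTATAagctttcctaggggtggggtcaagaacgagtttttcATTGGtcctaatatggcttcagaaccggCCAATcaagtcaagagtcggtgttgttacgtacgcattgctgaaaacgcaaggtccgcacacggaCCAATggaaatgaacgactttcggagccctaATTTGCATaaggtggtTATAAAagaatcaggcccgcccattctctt
H4C8 held none of the 3 motifs in this window, while all 4 H2B windows held the octamer once, at least 1 CCAAT and at least 1 TATAAA.

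Over the family, 51 histone genes had a promoter entry. ATTTGCAT stood in 16 of them (31.4%), against 1.66% of 27305 promoters of the same length. It was found in 9 of 12 replication-dependent H2B promoters (75.0%), in 6 of 8 H2A promoters (75.0%), and in 0 of 5 H1, 0 of 6 H3, 0 of 7 H4 and 0 of 8 variant promoters. CCAAT stood in 84.3% of the histone promoters and 33.0% of all promoters, with replication-dependent H4 the exception among the core classes at 2 of 7 (28.6%), and TATAAA in 60.8% and 11.1%. Several H2A and H2B genes lie head to head and share a window: H2AC6 and H2BC4 share 245 bases, and 4 of the 6 H2A members with the octamer share theirs with an H2B gene on the other strand. The 6 tested H2B genes that carry the octamer lay on both sides of 0 with dexrazoxane, from -0.29 (H2BC4) to 0.24 (H2BC21), with a median of -0.19. The 4 tested H2A genes that carry it were all below 0, from -0.28 to -0.07. Of the tested replication-dependent H2A genes without it, H2AC25 was at -0.19 and H2AC15 at 0.39. H2BC5, the tested H2B gene with a promoter entry and no octamer, was at 0.12, and its second probe set at -0.11. In the window that H2AC6 and H2BC4 share, the differences were -0.07 and -0.29. These letters describe the windows and say nothing of what binds there in these cells.

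Of the replication-dependent H2A genes, which encode the partner of H2B, 5 of 6 tested were below 0. H2AC8 read 5.70, 5.12 and 5.73 on the vehicle arrays and 5.53, 4.80 and 5.37 on the dexrazoxane arrays. Array 2 was the lowest in both groups, and the pairs differed by -0.17, -0.31 and -0.36, for a mean of -0.28 ± 0.08 (SE; limma, paired, adjusted p = 0.0798). H2AC15 was the exception, with 4.87, 5.42 and 5.32 against 5.52, 5.85 and 5.40, a difference of 0.39 ± 0.11 (SE; limma, paired, adjusted p = 0.0829). Its pairs differed by 0.65, 0.43 and 0.09, and leaving out pair 1, 2 or 3 gave 0.26, 0.37 and 0.54 (limma, paired, adjusted p = 0.294, 0.109 and 0.0214). A second H2AC15 probe set lay under the filter and differed by 0.09. H2AC4, H2AC6, H2AC14 and H2AC25 ran from -0.19 to -0.07.

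Of the replication-dependent H3 genes, H3C3, H3C6 and H3C8 were tested and all were below 0. H3C3 read 6.07, 5.94 and 5.91 on the vehicle arrays and 5.69, 5.78 and 5.72 on the dexrazoxane arrays. Its groups did not overlap, and the difference was -0.24 ± 0.08 (SE; limma, adjusted p = 0.124 paired and 0.999 without the block). H3C6 differed by -0.09, lower in all 3 pairs, and H3C8 by -0.03 with pairs on both sides of 0.

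Linker histone H1 compacts the fibre between nucleosomes, and 3 of its replication-dependent genes were tested. H1-3 read 5.40, 5.88 and 5.48 on the vehicle arrays and 5.49, 6.17 and 5.79 on the dexrazoxane arrays. It was higher in all 3 pairs, by 0.09, 0.29 and 0.30, with a mean of 0.23 ± 0.08 (SE; limma, paired, adjusted p = 0.140), and the groups overlapped. H1-2 differed by 0.03 and H1-4 by -0.05, with pairs on both sides of 0.

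**Figure D2:**
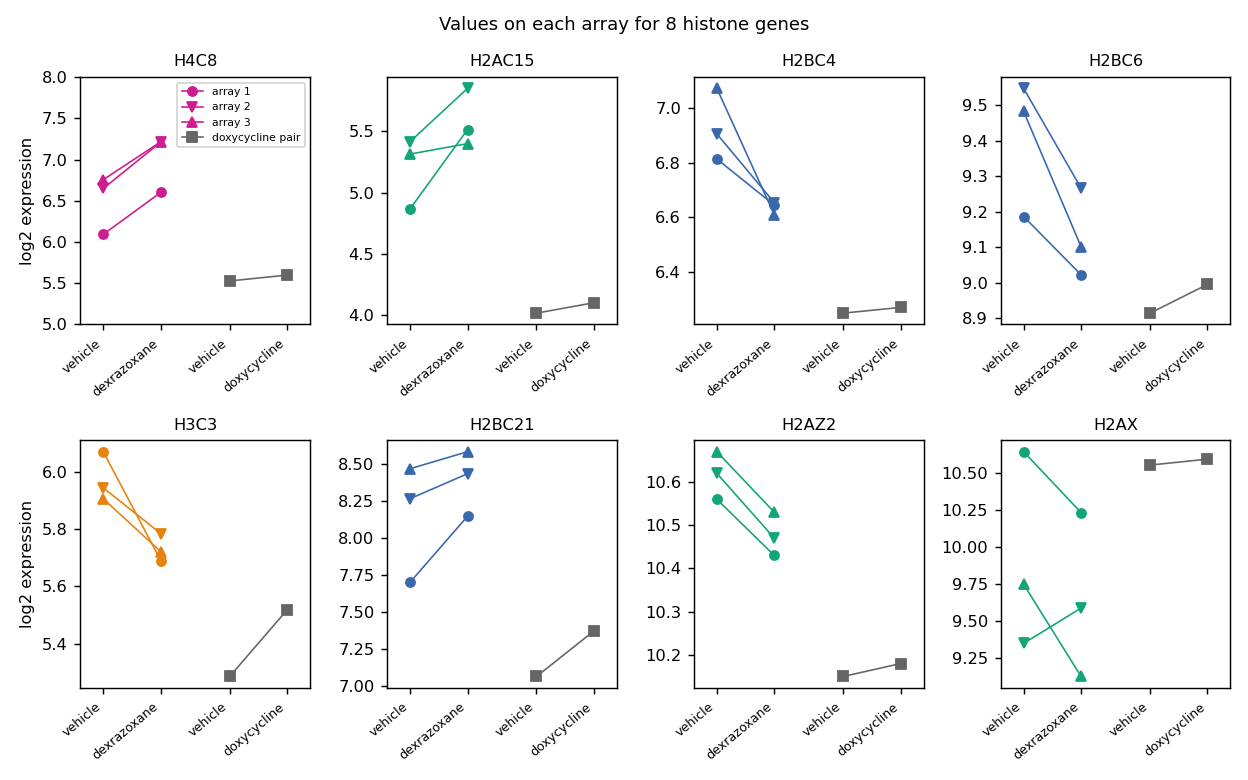
Log2 expression on each array for 8 histone genes; lines join same-numbered vehicle and dexrazoxane arrays (1 to 3), and grey squares are the doxycycline pair, which stands at another level and is read only within itself. H4C8 and H2BC21 slope up in all 3 pairs and H2BC4, H2BC6, H3C3 and H2AZ2 slope down, while H2AX slopes down in pairs 1 and 3 and up in pair 2; the y axes differ between panels.

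The variants replace core or linker histones, mostly outside S phase, and mark particular chromatin. All 8 tested variants were below 0, with differences of -0.55 to -0.03 and a median of -0.11, and 0 of 8 were called in either limma fit (paired adjusted p from 0.269 to 0.873). H2AZ2 encodes H2A.Z.2, found at promoters and enhancers. It read 10.56, 10.62 and 10.67 on the vehicle arrays and 10.43, 10.47 and 10.53 on the dexrazoxane arrays. Its groups did not overlap and its pairs differed by -0.13, -0.15 and -0.14, yet the difference of -0.14 ± 0.07 (SE) had an adjusted p of 0.295 in the paired limma fit. All 4 H2AZ2 probe sets were below 0, from -0.31 to -0.06. H2AZ1, which encodes H2A.Z.1, was lower in all 3 pairs, by -0.07 on average, and its second set by -0.14.

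H2AX, whose protein is phosphorylated at DNA breaks, read 10.64, 9.35 and 9.75 on the vehicle arrays and 10.23, 9.59 and 9.13 on the dexrazoxane arrays. Pairs 1 and 3 were lower and pair 2 higher, and the mean difference was -0.26 ± 0.15 (SE; limma, paired, adjusted p = 0.329). The value depended on the pairs used: without pair 1, 2 or 3 it was -0.19, -0.52 and -0.09 (limma, paired, adjusted p = 0.629, 0.0115 and 0.830). The H2AX probe sets did not all point one way, with -0.26, -0.22, -0.07 and 0.26. H3-3A, which encodes the H3.3 laid down by HIRA and DAXX, had the widest spread, at 6.78, 6.24 and 7.01 against 6.42, 4.71 and 7.25. Treated array 2 stood apart, and the difference was -0.55 ± 0.27 (SE) with a paired limma adjusted p of 0.269. This set averaged 6.37 over the 8 arrays. The 8 sets that H3-3A shares with H3-3B averaged 8.035 to 12.81 and differed by only -0.15 to -0.04. For the H3-3A set, values without a pair were as follows. It was -0.06 without pair 2, -0.65 without pair 1 and -0.95 without pair 3 (limma, paired, adjusted p = 0.832, 0.355 and 0.00886).

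H1-10, a linker histone made outside S phase as well, differed by -0.21 ± 0.11 (SE; limma, paired, adjusted p = 0.296), with pairs at -0.53, 0.03 and -0.14 and a value of -0.05 without pair 1. MACROH2A1 and MACROH2A2, which carry a macrodomain and are enriched on silent chromatin, differed by -0.03 and -0.06, and H2AJ by -0.03. The sign of these 3 small differences turned when a pair was left out, pair 1 for MACROH2A2 and H2AJ and pair 3 for MACROH2A1. Of the 7 MACROH2A1 probe sets 6 were below 0, and the other was at 0.04. H3-3B was without a probe set of its own and is not analysed here. Germline genes H1-6, H1-7 and H3-4 differed by 0.01 to 0.13, and the pseudogene H2AC5P by -0.09. The 22 histone genes under the filter ran from -0.28 to 0.27, with a median of 0.01, and were not tested in the fits described.

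The means of same-numbered arrays had a median range of 0.27 over the 36 tested histone genes, against 0.30 over all genes tested. Some histone genes differed between the array numbers more than most genes did. The means of same-numbered arrays lay at least 0.9 apart for 4 of 36 (11.1%), H1-10, H2AX, H2BC5 and H3-3A, against 2.44% of all genes. H1-10 and H2AX were highest on both arrays numbered 1: H1-10 read 9.97, 8.81 and 8.73 with vehicle and 9.44, 8.84 and 8.59 with dexrazoxane. H2BC5 was lowest there, with 8.70, 9.61 and 9.85 against 8.95, 9.61 and 9.96. H2BC5 also had probe sets that disagreed, at 0.12 and -0.11 for the treatment difference. What the array number stands for is not given in the labels.

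**Figure D3:**
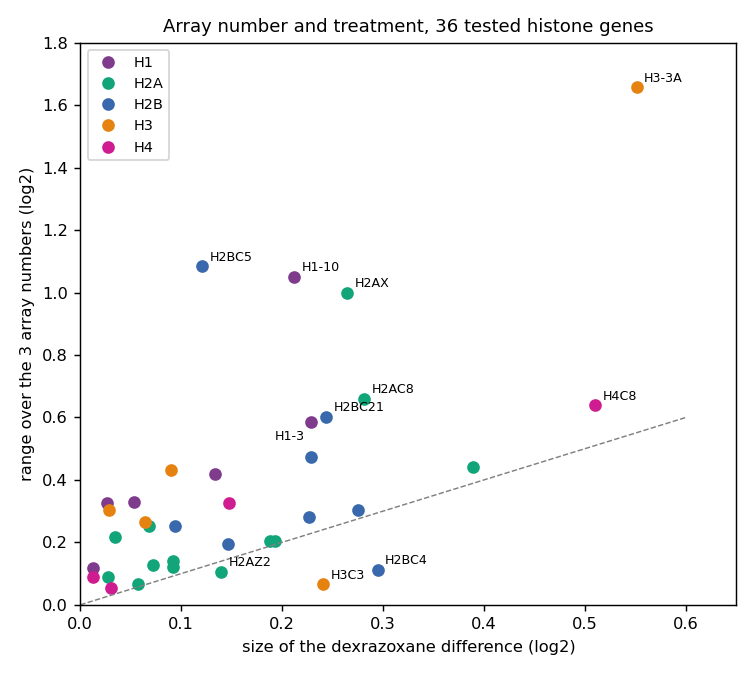
Range of the 3 means of same-numbered arrays (log2, y axis) against the size of the mean dexrazoxane difference (log2, x axis) for the 36 tested histone genes, coloured by protein; on the dashed line both are equal. A range of 3 means is wider by nature than a difference of 2, and 33 of 36 histone genes (91.7%) and 85.5% of all genes lie above the line; H3-3A, H2BC5, H1-10 and H2AX are highest, and the 3 under the line are H2BC4, H3C3 and H2AZ2.

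With doxycycline, which left TOP2A 62.1-fold lower, histone values differed little, and with 1 array a group no difference could be tested. Past 1.2-fold there were 2 of 36 histone genes, both higher, and 5.93% of all genes tested (2.5% higher and 3.43% lower); past 1.5-fold there were 0 of 36 and 0.129%. The 2 were H3C8, with 5.43 for vehicle and 5.81 for doxycycline (1.31-fold, 0.39 on the log2 scale), and H2BC21, with 7.06 and 7.37 (1.24-fold, 0.31). The H3C8 set is of the _x_at type, open to cross-hybridisation. Sets that H3C8 shares with other histone genes differed by 0.24, and by 0.11 and -0.60 for dim sets. The histone median was 0.04, against 0.02 over all genes, and 23 of 36 were above 0, 10 below and 3 equal, where 54.4% of all genes were above 0. The SD of the differences was 0.142 over the histone genes and 0.146 over all genes tested. Identical values on both arrays occurred for 11 of the 82 histone probe sets and for 5261 of all 54675.

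By class, all 8 tested H2B genes were above 0 with doxycycline, from 0.02 to 0.31, with a median of 0.16. H2A was at a median of 0.02, H3 at 0.23, H1 at -0.05 and H4 at -0.06. The H1, H2A and H3 medians and the sign counts over the 36 genes include genes under 4.83 on both arrays of the pair. They are H1-4 (3.98 with vehicle and 3.87 with doxycycline), H1-6 (4.12 and 3.91), H2AC15 (4.02 and 4.10) and H3-4 (4.10 and 3.93). The filter kept them because it took the mean over all arrays. The H3 median covers 5 genes that ran from -0.17 to 0.39, and it is the value of the dim H3-3A set. The 8 brighter sets that H3-3A shares with H3-3B differed by -0.07 to 0.05. The 3 replication-dependent H3 genes had a median of 0.23 and ran from 0 to 0.39. H4C8 read 5.53 and 5.60, a difference of 0.07 against 0.51 with dexrazoxane. Its second probe set read 5.32 and 5.52, a difference of 0.20 against 0.47 with dexrazoxane. The 5 H2B genes that were lower in every dexrazoxane pair differed by 0.02 to 0.21 with doxycycline. The signs of the comparisons were alike for 13 of 36 histone genes (36.1%), where 56.9% of all genes tested were alike; the comparisons share no array, and the difference between the treatments was not tested. Of the histone genes under the filter 3 were past 1.2-fold with doxycycline: H2BC1, at 1.67 and 2.21, H2AC16 and H2BC15, all at low values.

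**Figure D4:**
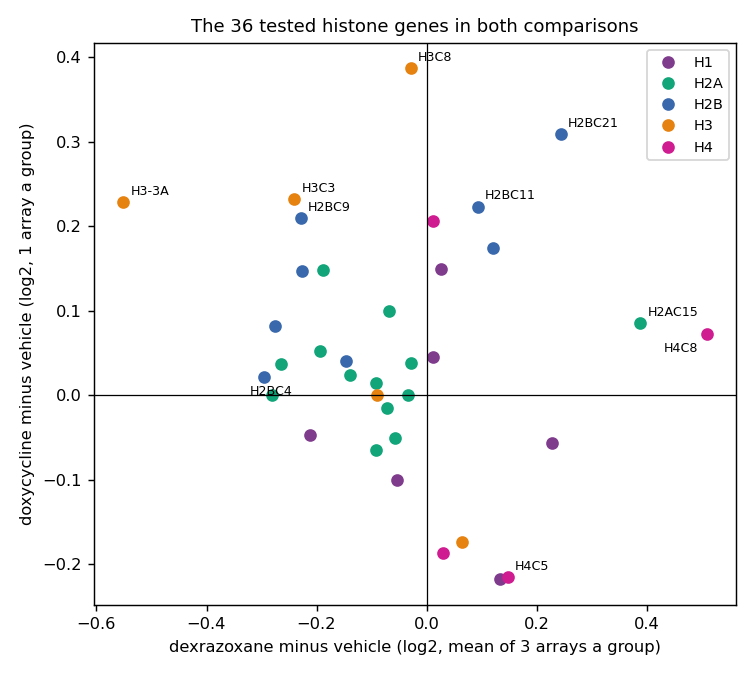
Difference with doxycycline (log2, 1 array a group, y axis) against difference with dexrazoxane (log2, means of 3 arrays a group, x axis) for the 36 tested histone genes, coloured by protein. All 8 H2B genes lie above 0 on the doxycycline axis while 5 of them lie below 0 on the dexrazoxane axis; H3C8 at 0.39 and H2BC21 at 0.31 are highest with doxycycline, and H4C8 at 0.51 is farthest right.

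Of the genes that regulate, process and carry histones, limma's paired fit called 4 of 50 tested in 5 lists, all lower with dexrazoxane: CCNE2, CHAF1B, HJURP and CENPA. Of all genes it called 2.44% lower, and without the block it called 0 genes of these lists. In histone transcription 6 of 7 genes were tested, with 1 called lower and 0 higher in the paired limma fit and a median of -0.27. CCNE2, a cyclin that activates CDK2 at the start of S phase, read 8.09 ± 0.509 with vehicle and 7.48 ± 0.705 with dexrazoxane (SD, n = 3), and fell by 0.61 (limma, paired, adjusted p = 0.0155). The related cyclin gene CCNE1 differed by 0.04, with pairs on both sides of 0 (limma, paired, adjusted p = 0.831). NPAT, the coactivator of histone genes that CDK2 phosphorylates, differed by -0.27 (limma, paired, adjusted p = 0.128). HINFP, a factor that binds H4 promoters, was 0.24 higher on average, in all 3 pairs and with groups that did not overlap (limma, paired, adjusted p = 0.105). CASP8AP2 and CDK2 went the other way in all 3 pairs, by -0.33 and -0.26 (limma, paired, adjusted p = 0.0966 and 0.0909), and the CDK2 groups did not overlap. Of 10 genes of histone mRNA 3′ processing 0 were called, with a median of -0.10 and 9 below 0. LSM11, a subunit of the U7 particle, differed by -0.27 (limma, paired, adjusted p = 0.0722), and CPSF3, the nuclease that cuts histone mRNA, by -0.24. SLBP itself differed by -0.18. Of 7 genes of histone mRNA decay 0 were called, with a median of 0.03, and 4 lay above 0 and 3 below. ERI1, the exonuclease that trims the stem-loop, differed by -0.33 (limma, paired, adjusted p = 0.0602), and DCP2, a decapping enzyme, by -0.25. LSM1 was 0.16 higher on average and higher in all 3 pairs. UPF1 was 0.18 higher on average, with pairs on both sides of 0.

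Chaperones that hand new histones to replicated DNA were below 0 for 12 of 13 tested genes, of 14 listed, with a median of -0.25, and limma's paired fit called 1 lower and 0 higher. CHAF1B, a subunit of the CAF-1 complex, read 7.24 ± 0.271 with vehicle and 6.84 ± 0.259 with dexrazoxane (SD, n = 3), and fell by 0.40 (limma, paired, adjusted p = 0.0463). Among 14 genes tied to variant histones 2 were called lower and 0 higher, with a median of -0.08. HJURP, the chaperone that loads the centromeric H3 variant CENP-A, fell by 0.44 (limma, paired, adjusted p = 0.0227), and CENPA, the gene of that variant, fell by 0.38 (limma, paired, adjusted p = 0.0378). CENPA is a histone gene by function that the prefixes leave out. In the doxycycline pair CHAF1B differed by -0.06, HJURP by 0.00, CENPA by -0.11 and CCNE2 by -0.22.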

How the data were processed

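RNA of HTETOP cells was read on 8 human Affymetrix arrays. The authors' deposited values are on a log2 scale, 1 per probe set and array, and come from RMA (background correction, quantile normalization and probe summary) as the submitters' processing notes name it. Whether RMA was run on all arrays at once is not stated. The number of arrays limits precision, and 0 columns belonged to other samples.

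Of 54675 probe sets, 41097 carried 1 symbol, 1801 several and 11777 none in the platform annotation. Symbols of 41043 were updated through a RefSeq table (GRCh38.p14) and 54 kept. The probe set with the highest mean stood for its gene. The RefSeq list has 88 protein-coding histone genes, 34 of them without a probe set of their own, and 28 probe sets shared with other genes were left out by the rule.

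The dexrazoxane comparison used limma 3.58.1 under R 4.3.3 (lmFit, eBayes, two-sided, Benjamini-Hochberg over the 14731 genes tested, bound 0.05), without and with the array number as a block; printed standard errors are those of the paired fit. The pairing comes from a check of the deviations from group means, with correlations of 0.823, 0.574 and 0.716 for same-numbered arrays and -0.629 to 0.181 otherwise. The doxycycline pair has differences only, and tools were tested on simulated data. Summaries used Python 3.11.15 with numpy 2.4.6 and pandas 2.3.3.

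The members and the gene lists were chosen with earlier results of these data known. Named with values were members called or at an unadjusted paired p under 0.05, all variants, members past 1.2-fold with doxycycline, and in other lists genes called or up to 2 with the smallest p. Other genes, NPAT, HINFP and SLBP among them, are examples chosen after their values were seen. HRH1, caught through an alias, is a receptor gene and was removed. POU2F1 and MMS22L have no probe set of their own and are not analysed here. Alternatives were other filters, probe set rules, centring, variance models, and leaving out arrays or pairs; a fit of all deposited probe sets, shared ones included, was added after the data were seen.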

Additional observations from a re-analysis of the deposited data

How the results depend on the processing

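Without the block limma called 0 histone genes in either direction under every alternative run, the arrays left out in turn included, except that the replicate block gave 1 higher. The paired count of 1 higher, H4C8, became 0 with no replicate block and 0 with every probe set tested on its own, 2 with a trended and robust variance (H2AC15 added), and 0 to 2 when a pair was left out. The paired count of 0 lower became 3 with a trended and robust variance, and 0 to 1 when a pair was left out (H2AX without pair 2, H3-3A without pair 3). With doxycycline the 2 genes past 1.2-fold became 5 with no filter and 0 at 1.5-fold. The median differences kept their sign, from -0.09 to -0.03 with dexrazoxane and from 0.02 to 0.05 with doxycycline. Of 202 values of named histone genes under alternatives 189 kept their direction and their side of the threshold, 3 lost the call (all H4C8) and 7 gained it. The other 3 changed sign, none of them called: H2AJ to 0.0944 without pair 1, MACROH2A1 to 0.0105 without pair 3 and MACROH2A2 to 0.0117 without pair 1. Centring the arrays turned no sign with dexrazoxane. The causes were not tested. With no filter, 2 of the added doxycycline genes are higher and 1 is lower, all dim.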

Other observations

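Probe sets that several genes share were outside the rule for members, and 28 of them hold a histone gene, 24 of them histone genes alone. In a limma fit of all 54675 probe sets, added after the data were seen, of which 83 (0.152%) were called with the block, 1 of the 28 passed the threshold. That set is annotated to 14 H4 genes, H4C8 among them, and is bright. It read 12.30, 12.26 and 12.62 on the vehicle arrays and 11.59, 11.66 and 11.82 on the dexrazoxane arrays. The groups did not overlap, each pair was lower, by -0.71, -0.59 and -0.80, and the set fell by 0.70 (limma, paired, adjusted p = 0.0374; 0.922 without the block). The H4C8 probe sets were higher, at 0.51 and 0.47, and which H4 copies it reads was not tested. In the doxycycline pair it differed by -0.17.

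Other shared sets moved less. The 8 sets that H3-3A and H3-3B share, each with a pseudogene or a microRNA gene, were all below 0, from -0.15 to -0.04, with 7 of them lower in all 3 pairs. The 5 shared H2B sets were also below 0, from -0.21 to -0.03. Shared H2A sets ran from -0.03 to 0.17 and shared H3 sets from -0.02 to 0.08. Apart from the called set, the shared H4 sets ran from -0.13 to 0.32. The lowest, annotated to the same 14 genes as the called set, averaged 6.06 over the 8 arrays. The highest was a dim set that read 2.94 ± 0.0127 with vehicle (SD, n = 3).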
